A study of Mus musculus with 6 samples.

Results

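The spliceosome and its regulators are described here by 5 gene families, measured in motor cortex of SOD1G93A mice, which model amyotrophic lateral sclerosis through a mutant human SOD1 transgene. All animals carried this transgene and were sampled at day 120. They were either controls (3 libraries) or had received ultrasound treatment (3 libraries), which the series title calls low-intensity pulsed ultrasound. The labels give no ultrasound settings, no sex and no statement that each library came from its own animal, so the p-values reflect only how these libraries vary, which may be technical. Genes were taken by name from a table of 33182 genes: the SR proteins (Srsf with a number), every Hnrnp gene, the Prpf genes with a number, the SF3a and SF3b subunits, and every gene whose name begins with Snrp. Of 68 rows with such names, Hnrnpa1 and Hnrnpa2b1 (2 rows) and 2 pseudogenes with "-ps" in the name were left out. The remaining 64 genes each had at least 10 summed counts. They comprise 11 Srsf, 18 Hnrnp, 13 Prpf, 9 Sf3 and 13 Snrp genes. One of them, Snrpert, is annotated in the table as a processed pseudogene, and the other 63 are protein-coding.

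These genes encode the parts of the machinery that cuts introns out of pre-mRNA and joins the exons. Small nuclear ribonucleoproteins (snRNPs) mark the splice sites: U1 binds the 5′ splice site, U2 with the SF3a and SF3b complexes binds the branch point, and the U4/U6.U5 tri-snRNP brings in the catalytic core, for which many PRP proteins are scaffolds, helpers or regulators. SR proteins bind exonic enhancers and mostly favour inclusion of an exon, while hnRNPs coat nuclear RNA and often act against them. Neurons make heavy use of alternative splicing, and several hnRNPs are linked to motor neuron disease.

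Total counts per library ranged from 38202541 to 60088636. The 18S ribosomal RNA gene took 4.68% of the counts in control 3 and 9.18% in ultrasound 2, against 0.561% to 1.67% in the other 4 libraries. Markers of cortical layers were present in every library, with a summed level of 348 to 490 scaled CPM (counts relative to the library total after TMM scaling). Markers of neighbouring tissue differed between libraries. Olfactory bulb genes summed to 241 scaled CPM in control 3 and to 5.49 to 13.9 elsewhere, choroid plexus genes to 349 in ultrasound 3 and to 6.28 to 25.7 elsewhere, and striatal genes to between 331 and 1385. Their part in the values below was not tested. In these tissue samples, fewer cells of a type and less RNA per cell cannot be told apart. The splicing factor genes took 0.710%, 0.707% and 0.674% of the counts outside 18S in controls 1 to 3, against 0.692%, 0.625% and 0.640% with ultrasound, so the groups overlapped.

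Levels, given per transcript length as FPKM, spread over 2 orders of magnitude. Their median was 13.0 FPKM, against 4.40 FPKM over the 15740 genes tested (mean of at least 0.5 FPKM), and 41 of the 64 lay at or above 10 FPKM. Snrpn, which encodes the neuronal form SmN of the SmB protein and is expressed from the paternal allele, stood first, with a control mean of 317 ± 51.7 FPKM and an ultrasound mean of 296 ± 46.1 FPKM (SD, n = 3 each). That was 6.11 times the mean of the second gene, Srsf5, at 51.9 ± 7.82 and 48.4 ± 9.04 FPKM. The ratio of Snrpn to Snrpb, which encodes SmB itself, was 13.9 ± 2.31 in controls and 14.4 ± 0.855 in ultrasound libraries and ranged from 11.45 to 16.02 over single libraries. The other proteins of the Sm ring, the heptamer that holds each spliceosomal snRNA, ran from Snrpg at 5.82 FPKM to Snrpd3 at 14.8 FPKM. In the other families the highest means belonged to Hnrnpab (41.5 FPKM) and Hnrnpa0 (39.5 FPKM), to Prpf8 (27.3 FPKM), the scaffold of the catalytic core, and Prpf19 (19.5 FPKM), a ubiquitin ligase of the active spliceosome, and to the SF3b subunits Sf3b2 (34.4 FPKM) and Sf3b1 (26.5 FPKM). The lowest member was Snrpc, a U1 protein, at 2.69 FPKM. Within the SR family every library had more Srsf3 (13.4 FPKM) than Srsf10 (5.98 FPKM) or Srsf12 (5.25 FPKM), the lowest members.

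**Figure D1:**
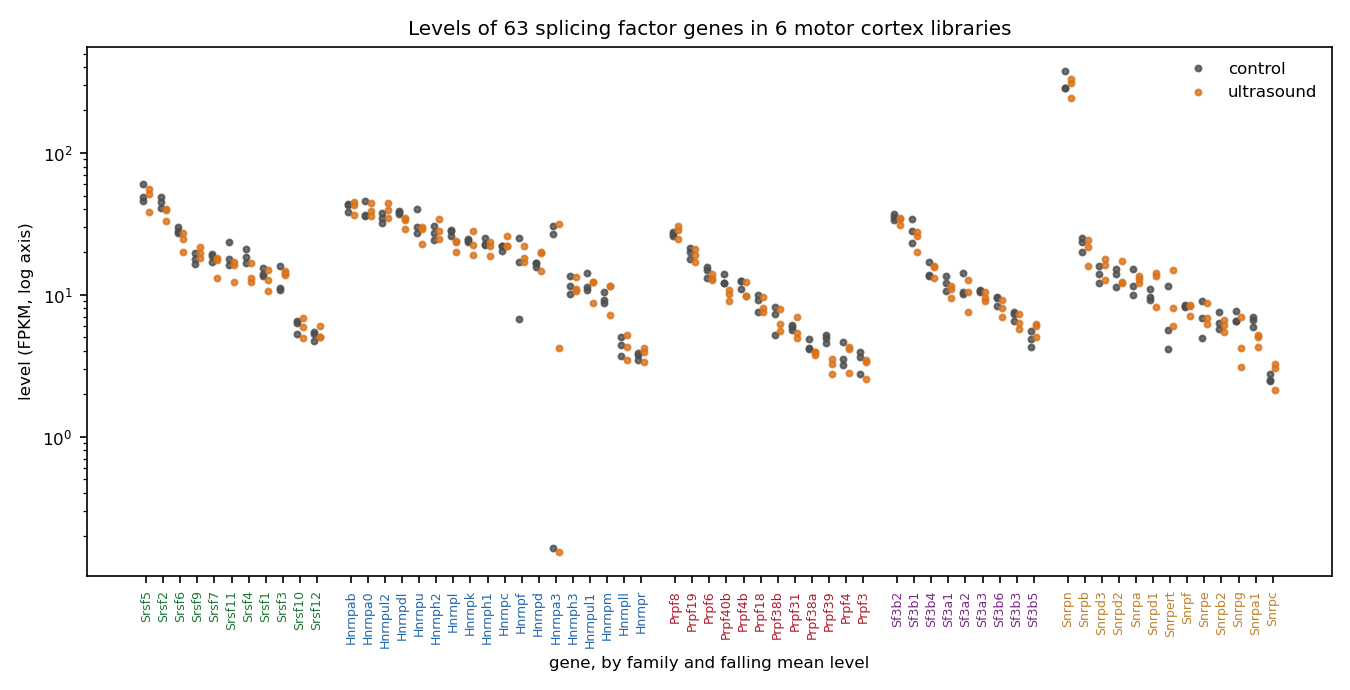
Level of 63 of the 64 genes (FPKM, log axis) in the 3 control and 3 ultrasound libraries, 1 point per library, ordered by family and mean. Snrpn stands above all others in every library, and Hnrnpa3 is the one gene whose points fall far apart within both groups.

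No splicing factor gene passed an adjusted p of 0.05 between ultrasound and control. This was 0 of 64 in the edgeR quasi-likelihood test with Benjamini-Hochberg adjustment over all 15740 genes, of which 0.00635% (1 gene) passed. The lowest adjusted p among the 64 was 0.973, and 0 passed in DESeq2 (0.184% of all genes) or limma. At an unadjusted p under 0.05 in edgeR, 4 genes were lower with ultrasound, which is 6.25% against 2.32% of all tested genes, and 0 were higher, against 2.45%. The median log2 fold change (ultrasound minus control) was -0.04, against -0.01 over all tested genes. It was below 0 for 36 of the 64, where 51.2% of all tested genes were, and 52 of the 64 lay within 0.25 of 0. The values of the control and ultrasound libraries did not overlap for 9 genes (14.1%), against 11.3% of all tested genes. Of these, 8 were lower (12.5% of the 64, against 5.66% of all genes) and 1 was higher (1.56%, against 5.69%). The count of 4 at an unadjusted p under 0.05 was 2 without the pair of libraries richest in 18S. These 2 were Prpf39, which was among the 4, and Snrpg, which was not. With single libraries left out the count lay between 1 (without control 2) and 3 (without ultrasound 2). It was 2 without each of the other 4 libraries. The 3 without ultrasound 2 were Prpf39, Snrpa1 and Snrpg.

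**Figure D2:**
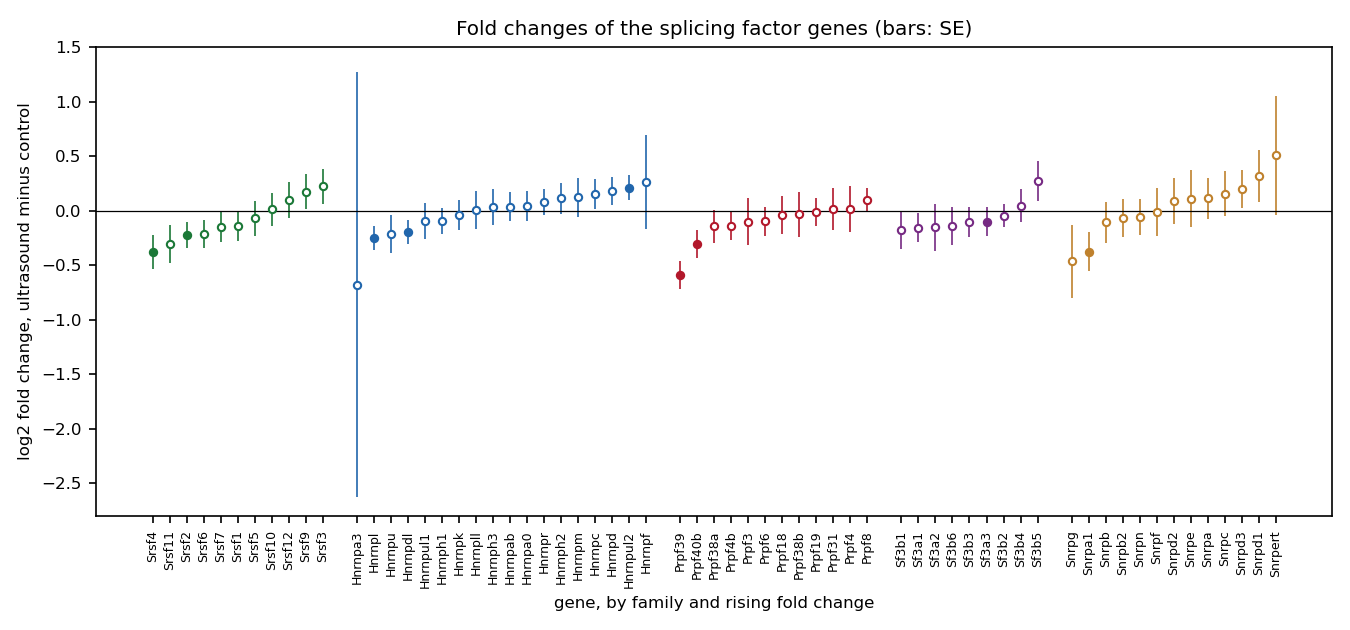
Log2 fold change of 63 of the 64 genes, ultrasound minus control, with its standard error from edgeR, by family. Filled points are the 9 genes whose groups did not overlap. Prpf39 at -0.59 lies farthest from 0 relative to its error, and the long bar belongs to Hnrnpa3.

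The promoters of 4 of the genes whose ultrasound libraries all lay below the controls are shown, to set their sequence beside the levels: Prpf39 and Srsf4, with the smallest p-values, Hnrnpl, and Sf3a3 from the SF3 family. Sequences are from RefSeq on GRCm38.p6, 250 bases before to 50 after the first listed start of each gene, 5′ to 3′ on the plus strand, at chr12:65036084-65036383, chr4:131873387-131873686, chr7:28810640-28810939 and chr4:124714611-124714910. Capitals mark matches, on either strand, to the ETS core CCGGAAG, to the TATA box motif TATAAA, to the NF-Y box motif CCAAT or to the E-box motif CACGTG.
Prpf39: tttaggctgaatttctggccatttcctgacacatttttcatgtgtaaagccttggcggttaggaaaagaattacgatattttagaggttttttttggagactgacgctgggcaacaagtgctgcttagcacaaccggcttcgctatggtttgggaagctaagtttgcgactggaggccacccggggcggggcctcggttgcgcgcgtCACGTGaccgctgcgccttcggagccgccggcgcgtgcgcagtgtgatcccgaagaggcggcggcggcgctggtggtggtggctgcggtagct
Srsf4: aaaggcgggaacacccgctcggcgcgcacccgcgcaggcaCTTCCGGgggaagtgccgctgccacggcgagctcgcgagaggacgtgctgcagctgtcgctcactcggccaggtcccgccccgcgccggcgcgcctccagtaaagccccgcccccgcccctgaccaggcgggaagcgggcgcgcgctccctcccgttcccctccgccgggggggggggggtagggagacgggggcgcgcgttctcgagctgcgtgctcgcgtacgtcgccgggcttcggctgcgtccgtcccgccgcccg
Hnrnpl: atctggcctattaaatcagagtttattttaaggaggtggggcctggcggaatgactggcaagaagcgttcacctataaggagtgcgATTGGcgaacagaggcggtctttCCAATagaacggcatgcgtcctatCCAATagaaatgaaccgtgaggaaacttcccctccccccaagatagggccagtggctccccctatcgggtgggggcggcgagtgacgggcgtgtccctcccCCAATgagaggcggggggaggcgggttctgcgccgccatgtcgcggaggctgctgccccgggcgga
Sf3a3: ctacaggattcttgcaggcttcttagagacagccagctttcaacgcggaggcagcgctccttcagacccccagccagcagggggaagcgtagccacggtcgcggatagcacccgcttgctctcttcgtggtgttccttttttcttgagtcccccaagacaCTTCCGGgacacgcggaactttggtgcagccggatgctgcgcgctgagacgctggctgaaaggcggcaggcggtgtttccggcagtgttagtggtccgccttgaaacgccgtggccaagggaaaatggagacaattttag

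Prpf39 holds the E-box 43 bases before its start, Hnrnpl holds 4 CCAAT matches, and Srsf4 and Sf3a3 each hold CCGGAAG on the other strand. Of the 64 genes, 55 had a promoter in the RefSeq table. CCGGAAG stood in 19 of these 55 (34.5%), against 17.1% of 10733 promoters of the other tested genes and 9.12% of all 27025 promoters. By family this was 6 of 7 SF3 promoters, 4 of 10 Snrp, 4 of 11 Srsf, 3 of 11 Prpf and 2 of 16 Hnrnp. CCAAT stood in 47.3% (38.1% of other tested genes, 37.9% of all), CACGTG in 14.5% (10.2% and 7.24%) and TATAAA in 10.9% (7.00% and 14.2%). The median GC content was 60.0%, close to the 61.3% of other tested genes. These are matches of letters in a fixed window.

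Among the PRP proteins, the U1-associated Prpf39 had the smallest p of all 64 genes. In yeast, its counterpart Prp39 is a U1 snRNP protein needed for commitment of pre-mRNA to splicing. Prpf39 (ENSMUSG00000035597) is listed on the plus strand of chromosome 12. Its level was 66.5, 59.6 and 69.4 scaled CPM in controls 1 to 3, against 46.2, 39.9 and 43.5 with ultrasound, in the same order of numbers. Every ultrasound library lay below every control, with a gap wider than the range within either group. Its log2 fold change of -0.59 (SE 0.13) had an unadjusted p of 0.00192 and an adjusted p of 0.973 in edgeR across all genes. It kept an unadjusted p under 0.05 in all 16 alternative fits, the highest being 0.0189 without the pair of libraries richest in 18S, and over these fits the adjusted p lay between 0.0835 (DESeq2) and 0.9997 (edgeR with another filter on low counts). Some of its annotated transcripts overlap those of Fkbp3 on the other strand, which share 2.34% of its read-length windows. Fkbp3 had a log2 fold change of -0.10 (SE 0.15).

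Prpf40b, whose yeast counterpart bridges U1 and the branch point, was the second PRP gene with an unadjusted p under 0.05. It was at 77.6, 65.0 and 67.4 scaled CPM in the controls, against 55.4, 53.9 and 60.0 with ultrasound, again without overlap. Its log2 fold change was -0.31 (SE 0.13; unadjusted p = 0.0427 in edgeR across all genes). That p was under 0.05 in 9 of the 16 alternative fits and in 2 of the 6 that left out a single library. The proteins of the tri-snRNP were closer to 0: log2 fold changes of Prpf3, Prpf4, Prpf6, Prpf8 and Prpf31 lay between -0.10 and 0.10. Prpf8 itself was at 216, 216 and 231 scaled CPM in the controls, against 249, 224 and 238 with ultrasound. The other 5 PRP genes, among them the kinase Prpf4b and Prpf19, lay between -0.15 and -0.01. Of all 13 PRP genes, 2 were lower at an unadjusted p under 0.05 and 0 higher.

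Among the SR proteins, 7 of 11 had a log2 fold change below 0 and the median was -0.14. Srsf4 had the smallest p. It was at 66.4, 71.6 and 84.2 scaled CPM in the controls, against 65.9, 52.4 and 52.3 with ultrasound, so that ultrasound 1 lay just under control 1. Its log2 fold change was -0.38 (SE 0.15; unadjusted p = 0.0392 in edgeR across all genes). For Srsf4, 10 of the 16 alternative fits had an unadjusted p under 0.05, and 2 of the 6 that left out a single library. Of the read-length windows of Srsf4, 34.5% also occur in the antisense transcript Gm12992, and whether strand was used in the counting is unknown. Gm12992 had a log2 fold change of 0.05 (SE 0.18). Srsf2, which also acts in transcription elongation, was at 135, 157 and 149 scaled CPM in the controls, against 128, 118 and 132 with ultrasound. Its groups did not overlap, and its log2 fold change was -0.22 (SE 0.12; unadjusted p = 0.0952 in edgeR across all genes). Srsf11, Srsf6, Srsf7, Srsf1 and Srsf5 had values from -0.31 to -0.07 with overlapping groups, and Srsf3, Srsf9, Srsf12 and Srsf10 values from 0.01 to 0.22. The family moved with single libraries: its median deviation from the gene means was 0.05, 0.04 and 0.00 on the log2 scale in controls 1 to 3, against -0.09, -0.23 and 0.05 with ultrasound. Ultrasound 2, the library with most 18S, was the low one, and ultrasound 3 lay among the controls.

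**Figure D3:**
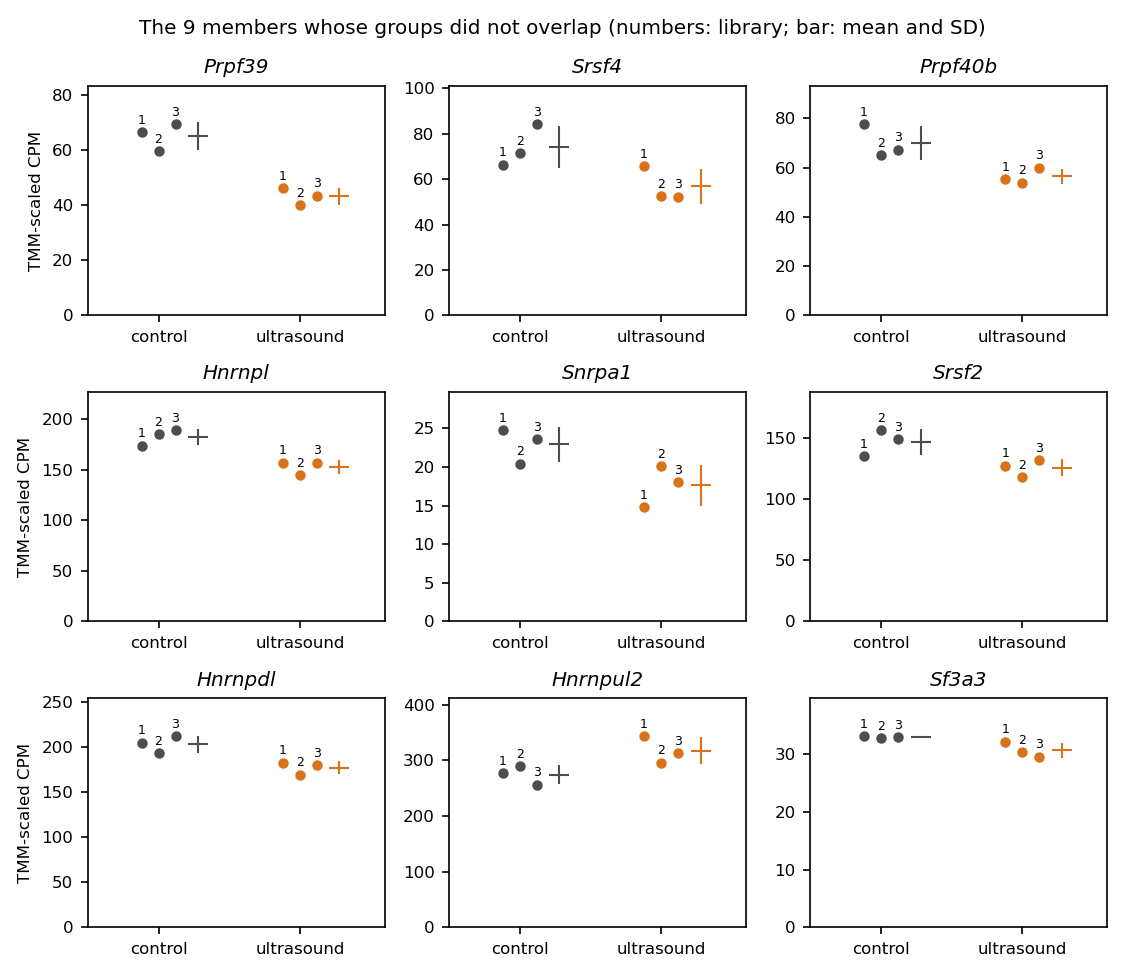
Scaled CPM of the 9 genes whose control and ultrasound libraries did not overlap, with library numbers, group means and SDs; axes start at 0. Prpf39 shows the widest gap relative to its level, while Sf3a3, Srsf4, Snrpa1, Hnrnpul2 and Srsf2 are separated by a small margin.

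The hnRNP family had 11 genes above and 7 below 0. Hnrnpl, which binds CA-rich elements and regulates exon inclusion, was the one with an unadjusted p under 0.05. It was at 174, 185 and 189 scaled CPM in the controls, against 157, 145 and 157 with ultrasound, with no overlap. Its log2 fold change was -0.26 (SE 0.11; unadjusted p = 0.0484 in edgeR across all genes), and its paralogue Hnrnpll had 0.01 (SE 0.17). Hnrnpl had an unadjusted p under 0.05 in 3 of the 16 alternative fits and in 0 of the 6 that left out a single library. Hnrnpdl, a relative of the AU-rich element binding protein Hnrnpd, was at 205, 193 and 212 scaled CPM in the controls, against 183, 169 and 180 with ultrasound. Its log2 fold change was -0.20 (SE 0.11), and that of Hnrnpd was 0.18 (SE 0.13). The FPKM ratio of Hnrnpdl to Hnrnpd was thus 2.27, 2.36 and 2.34 in the controls, against 1.72, 1.97 and 1.70 with ultrasound, a ratio chosen after its values were seen and not tested. Hnrnpul2, a nuclear matrix protein of the hnRNP U type, was the only gene of the 9 that was higher: 277, 290 and 257 scaled CPM in the controls, against 344, 296 and 313 with ultrasound, with a log2 fold change of 0.21 (SE 0.12). Hnrnpu, its better known relative, had -0.21 (SE 0.17), with control 1 at 522 scaled CPM and the other 5 libraries between 316 and 384.

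Hnrnpa3 and Hnrnpf had the largest spread within groups among the 63 protein-coding members. Hnrnpa3, which binds telomeric and trafficking elements, was counted 9193, 11147 and 39 times in controls 1 to 3, against 8374, 44 and 1088 times in the ultrasound libraries, in the order 1 to 3. Control 3 and ultrasound 2, the pair at about 1 scaled CPM (1.02 and 1.04), are also the pair richest in 18S, and the other controls and ultrasound 1 lay between 163 and 187. Its within-group SD was 4.02 on the log2 scale, against a median of 0.18 over the 64 genes and 0.29 over all tested genes. None of the 2398 tested genes of at least its mean level, itself among them, had a larger SD than Hnrnpa3. The standard error of its log2 fold change was larger than the change itself (-0.68, SE 1.95). Of its read-length windows, 24.5% also occur in transcripts of 18 other annotated genes, among them Gm5641 and Gm11847. The summed level of these genes was 110.5, 100.5 and 82.4 scaled CPM in the controls, against 119, 103 and 111 with ultrasound, lowest in control 3 and near the middle in ultrasound 2. Hnrnpf, which binds G-rich tracts, shares 40.9% of its windows with 10 genes. It had 1313 counts in control 1 and 2486 to 3551 in the other 5 libraries.

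**Figure D4:**
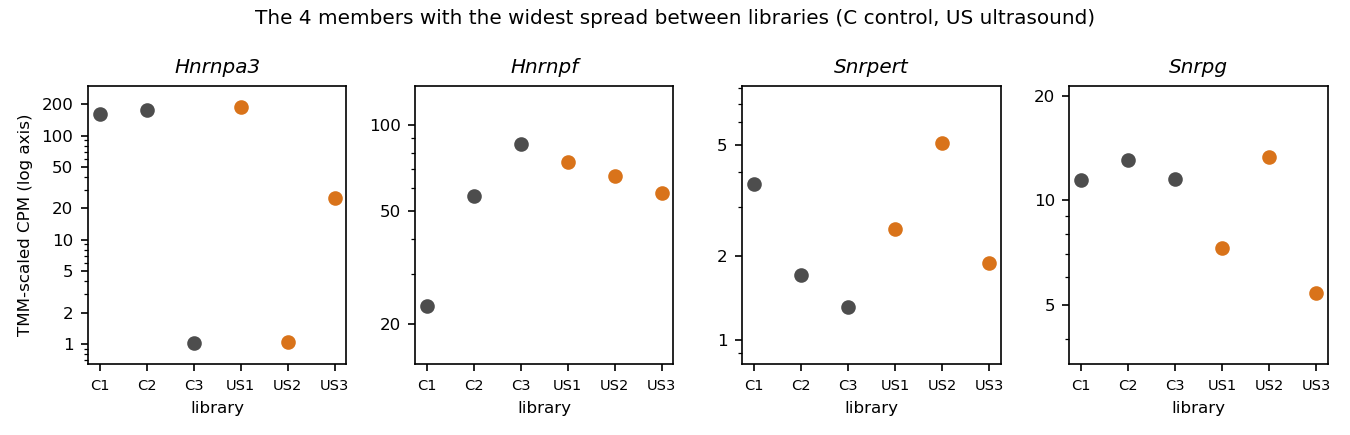
Scaled CPM per library (log axis; C control, US ultrasound) of the 4 genes with the largest within-group SD. Hnrnpa3 is near 1 in control 3 and ultrasound 2 and near 25 in ultrasound 3, and above 160 in the other libraries; Hnrnpf is low in control 1.

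In the SF3 complexes, which clamp U2 onto the branch point, 7 of 9 genes lay below 0 and the median was -0.10. Sf3a3 was at 33.0, 32.8 and 32.9 scaled CPM in the controls, against 32.1, 30.3 and 29.5 with ultrasound. The groups were apart, but by less than 1 scaled CPM, and edgeR across all genes gave -0.10 (SE 0.13; unadjusted p = 0.454). The other SF3a subunits, Sf3a1 and Sf3a2, each had -0.16. The value of Sf3a1 was -0.06 without control 3 and -0.02 without the pair of libraries richest in 18S. Sf3b1, the subunit that is often mutated in blood cancers, had -0.18 (SE 0.17), while Sf3b2 had -0.05 (SE 0.11) and a within-group SD of 0.06 on the log2 scale. Single libraries moved Sf3b1, to -0.02 when control 1 was left out, to -0.09 when ultrasound 2 was, and to -0.30 when control 3 was. Sf3b5 had the smallest p of the family, with 18.5, 20.4 and 24.0 scaled CPM in the controls, against 25.2, 29.0 and 21.5 with ultrasound. These groups overlapped, and its log2 fold change was 0.27 (SE 0.18), or 0.16 with ultrasound 2 left out.

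Of the 13 Snrp genes, 7 lay above and 6 below 0. Snrpa1, the U2 A′ protein, was at 24.8, 20.4 and 23.6 scaled CPM in the controls, against 14.8, 20.1 and 17.995 with ultrasound. Its groups were apart by a small margin between control 2 and ultrasound 2, and its log2 fold change was -0.38 (SE 0.18; unadjusted p = 0.0701 in edgeR across all genes). Its U2 partner Snrpb2 had -0.07 (SE 0.17), and the U1 proteins Snrpa and Snrpc had 0.11 (SE 0.19) and 0.16 (SE 0.21). Snrpg, of the Sm ring, was at 11.4, 13.1 and 11.5 scaled CPM in the controls, against 7.32, 13.3 and 5.41 with ultrasound. Ultrasound 2 lay above all controls, so the direction of its log2 fold change of -0.47 (SE 0.33) rested on ultrasound 1 and 3. It was -0.92 with ultrasound 2 left out (unadjusted p = 0.0104 in edgeR) and -0.22 with ultrasound 3 left out (unadjusted p = 0.499 in edgeR). Without the pair of libraries richest in 18S it was -0.95 (unadjusted p = 0.0182 in edgeR). Snrpd1 and Snrpd3 had 0.32 (SE 0.24) and 0.20 (SE 0.17), with ultrasound 3 lying with the controls or below them. Snrpn was at 696, 885 and 694 scaled CPM in the controls, against 790, 804 and 588 with ultrasound, with a log2 fold change of -0.06 (SE 0.17). Of its read-length windows, 12.2% also occur in other annotated genes, among them Snurf and Gm38393, which makes its count less certain. Gm38393 had a log2 fold change of 0.68 (SE 0.25; unadjusted p = 0.0262 and adjusted p = 0.973 in edgeR across all genes). Snrpb had -0.11 (SE 0.19). As a family, the Snrp genes were low in ultrasound 3 (median deviation -0.21) and high in ultrasound 2 (0.16), with controls between -0.08 and 0.07, so the treated libraries lay on both sides of the controls. The pseudogene Snrpert, with 50 to 215 counts per library, had 0.50 (SE 0.54).

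**Figure D5:**
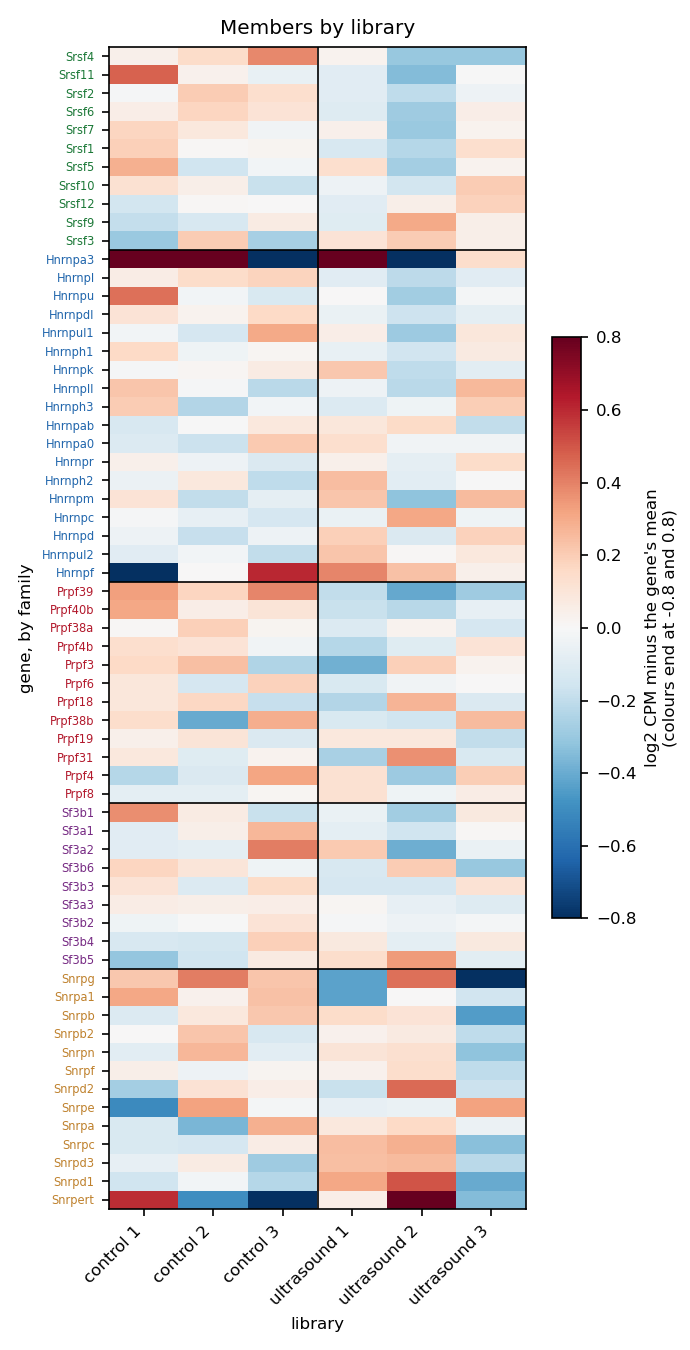
Deviation of 63 of the 64 genes from their own means over the 6 libraries (log2 CPM; colours end at -0.8 and 0.8), by family, with controls on the left. Ultrasound 2 is low for most SR proteins and high for most Snrp genes, and ultrasound 3 is low for most Snrp genes.

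Other spliceosome and splicing regulator genes were listed in 6 groups of 141 symbols, of which 140 were tested. None passed the adjusted threshold, with a lowest adjusted p of 0.973 in edgeR, and at an unadjusted p under 0.05 there were 5 higher and 6 lower (7.86%, against 4.77% of all tested genes). Genes for SR protein kinases and SR-related proteins held 5 of the 6 lower ones among 28 tested (17.9%, against 2.32% of all tested genes). Of the 28, 25 lay below 0, where 51.2% of all tested genes did. This list was chosen with earlier results of these data known. The 5 were Srrm2, a scaffold of nuclear speckles, the kinases Srpk3, Clk3 and Clk4, which phosphorylate SR proteins, and the splicing regulator Sfswap. Srrm2 was at 569, 417 and 445 scaled CPM in the controls, against 332, 300 and 356 with ultrasound, a log2 fold change of -0.53 (SE 0.15; unadjusted p = 0.00758 in edgeR across all genes). Clk4 was at 73.3, 85.0 and 79.6 scaled CPM in the controls, against 56.1, 49.0 and 70.6 with ultrasound, and its log2 fold change was -0.44 (SE 0.16). For all 5 genes every ultrasound library lay below every control, but they were picked by p in these libraries, so this adds no separate support. In the whole list the groups were apart and lower for 6 of 28, against 5.66% of all tested genes. Srpk3, Clk3 and Sfswap had log2 fold changes of -0.75 (SE 0.24), -0.31 (SE 0.12) and -0.33 (SE 0.13). The count of 5 with an unadjusted p under 0.05 was 1 without the pair of libraries richest in 18S. It was 3 without control 1 or without ultrasound 2, and 2 without control 2 or without ultrasound 1. It was 4 without control 3 and 7 without ultrasound 3. Genes of the list below 0 numbered 20 without the 18S pair and 22 to 24 with single libraries left out. Gemin7, of the SMN complex that loads Sm rings onto snRNA, was the sixth lower gene, at -0.53 (SE 0.22).

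Higher genes of the partner lists were Snu13 and Txnl4a of the tri-snRNP and the neuronal and tissue regulators Elavl2, Mbnl2 and Syncrip. Snu13, which binds U4 snRNA, was at 63.3, 62.4 and 50.3 scaled CPM in the controls, against 86.5, 108 and 80.6 with ultrasound, a log2 fold change of 0.64 (SE 0.16; unadjusted p = 0.00416 in edgeR across all genes). Elavl2, a neuronal AU-rich element binding protein, was at 22.2, 28.8 and 49.7 scaled CPM in the controls, against 71.6, 57.8 and 67.1 with ultrasound, a log2 fold change of 0.97 (SE 0.29). Both were without overlap between groups, as were Mbnl2 at 0.65 (SE 0.26) and Syncrip at 0.40 (SE 0.14), while Txnl4a at 0.76 (SE 0.27) overlapped. For Mbnl2 the margin was small, with control 1 at 114.0 and ultrasound 3 at 114.3 scaled CPM. These genes were picked by p in the same libraries. Of all 140 partner genes, 6 had groups apart and higher, a smaller share than the 5.69% of all tested genes. Another 12 of the 140 were apart and lower, a larger share than the 5.66% of all tested genes. The lists of U1 and U2 partners (15 tested) and of minor spliceosome proteins (10 tested) held 0 genes with an unadjusted p under 0.05 in edgeR, and none passed the adjusted threshold in edgeR.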

How the data were processed

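The authors deposited 1 table with raw counts and FPKM values for 33182 genes, per the file headers. FPKM in the deposited table relate fragments to transcript length and sequencing depth. Named without roles in the submitters' processing notes are the build mm10, StringTie 1.3.4d, HISAT2 2.0.4, cutadapt 1.9, edgeR and DESeq2. How reads were counted, by strand or with multi-mapping reads, is not stated there. Libraries were oligo(dT)-selected and dUTP-marked, per the labels' protocols. Only 1 of 64 members has the same start and end in GENCODE M21 (GRCm38), so gene coordinates of the table are not printed. Another 12 per-library columns were not used.

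The 15740 genes whose mean reached 0.5 FPKM, all 64 members among them, were tested in R 4.3.3 by quasi-likelihood (edgeR 4.0.16; TMM scaling, robust, no covariate, Benjamini-Hochberg adjustment, threshold 0.05); DESeq2 1.42.0 and limma 3.58.1 on log2(FPKM + 0.5) were alternatives. CPM were scaled by TMM. Within-group SDs are of log2 scaled CPM. Total counts of 38202541 to 60088636 set only the sampling noise, and counts of PCR-amplified reads are not independent molecules. The chi-square per gene between any pair of libraries was at least 85.1, far above sampling noise. Windows of 150 bases, the read length in the labels, were taken from GENCODE M21 transcripts and matched exactly on both strands. One member is counted but not reported here by name. Members and lists were chosen with earlier results of these data known. Named members were those with an unadjusted p under 0.05, and in each family the 2 with the smallest p and the 2 with the highest FPKM, plus Snrpn and Snrpb; up to 15 partner genes with an unadjusted p under 0.05 were named. Hnrnpa3, Hnrnpf, the ratio of Hnrnpdl to Hnrnpd and further members were chosen for naming once values were known. The test was tested on simulated counts.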

Additional observations from a re-analysis of the deposited data

How the results depend on the processing

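No member passed the adjusted threshold in any of the 16 alternative fits, and the lowest adjusted p was 0.0835 (Prpf39, DESeq2). Against 4 members lower at an unadjusted p under 0.05, there were 5 with library size only, 5 in each limma fit and 2 in DESeq2. With RLE scaling, without the FPKM filter, with another filter on low counts or with 18S left out of library sizes there were 3. Without the pair of libraries richest in 18S there were 2 (Prpf39 and Snrpg), and with single libraries left out 1 to 3. Of the 4, only Prpf39 was counted in every fit. Higher ones numbered 0 to 1 (Srsf3 without control 2, Snrpd1 without ultrasound 3). Over the 16 fits, 3.72% to 5.66% of all genes had an unadjusted p under 0.05, in either direction. With the replicate block the count of lower members was 1 (Prpf39). Deviations of same-numbered libraries had correlations of -0.03, 0.01 and 0.06, against -0.137 to 0.122 between libraries of different number. With 3 libraries a group this cannot settle whether the numbers mark a pairing, and the sample titles name none. Why the count differed was not tested. The members' median of -0.04 moved to -0.0900 with library size only, -0.08 in both limma fits (-0.0814 and -0.0838) and -0.0192 without the 18S pair, while that of all genes was -0.06 with library size only and -0.04 in both limma fits. Members with groups apart numbered 9 of 64 (14.1%), against 11.3% of all genes. Smaller groups separate more often, among all genes too. With single libraries left out, members apart ran from 10 of 64 without control 2 (20.1% of all genes) to 20 of 64 without ultrasound 3 (22.1% of all genes). Without the 18S pair they numbered 32 of 64, a larger share than the 35.4% of all genes. Why the members' share differed was not tested. Of 304 fold changes of 19 named members, 287 kept their sign. With library size only, Hnrnpa0 turned to -0.0039 and Hnrnpab to -0.0186, Hnrnpab also to -0.00639 and -0.00648 in limma, and Sf3b2 to 0.0017 without the 18S pair. With single libraries left out, ranges crossing 0 were -0.0222 to 0.169 for Hnrnpa0, -0.0344 to 0.136 for Hnrnpab, -0.0721 to 0.0737 for Prpf19, -0.211 to 0.0584 for Snrpb, -0.138 to 0.0722 for Snrpn and -0.160 to 0.07 for Srsf5. The SR kinase count was added after its values were seen. With 3 libraries a group, the spread between libraries limits what can be called.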
